A study of Mus musculus with 24 samples.

Results

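Torin1 was set directly against MK-8722 in *tfeb tfe3* DKO MEFs, mouse embryonic fibroblasts that carry a knockout of both *Tfeb* and *Tfe3*. These 8 of the 24 RNA-seq libraries were chosen by genotype and treatment alone. Of them, 4 were treated with 100 nM torin1, a catalytic inhibitor of MTOR, and 4 with 10 μM MK-8722, which activates AMPK directly. The comparison asks which differences between the drugs persist where TFEB and TFE3 are missing. WT MEFs given the same drugs (4 and 4 libraries) served to show where the knockout differs, and DKO MEFs given the 0.1% DMSO vehicle (4 libraries) to show which drug moved a gene. The remaining group was DMSO-treated WT MEFs. Each genotype was 1 cell line provided by another laboratory, so the knockout and the line cannot be told apart. P-values measure the spread between cultures of these lines, which were taken at different passages within a group, at 8 to 11 in DKO MEFs and at 7, 8, 9 and 11 in WT MEFs. The time under drug before RNA extraction is not given in the sources used here.

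MTORC1 is the kinase complex through which amino acids and growth factors promote protein, lipid and nucleotide synthesis, partly by raising the translation of *Atf4* mRNA and by activating the SREBP factors of sterol and fatty acid synthesis. It also holds TFEB and TFE3 in the cytosol. AMPK responds to low energy and opposes MTORC1 through TSC2 and RPTOR, while it also phosphorylates many substrates of its own. An ATP-competitive MTOR inhibitor such as torin1 also acts on MTORC2, the complex that activates AKT and thereby excludes FOXO factors from the nucleus. TFEB and TFE3 bind CLEAR elements in the promoters of lysosomal and autophagy genes, so a drug difference in DKO MEFs is one that arose without these factors.

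Library totals ranged from 24668921 to 33332562 estimated counts. Levels of genes and summed levels of gene lists are given as TMM-scaled CPM (counts scaled to a common library size), whereas the sums of cell type markers are CPM of the unscaled library totals. Lists of 4 values follow replicates 1 to 4. Log2 fold changes are torin1 minus MK-8722 with their SE, and adjusted p-values come from the quasi-likelihood test of edgeR, adjusted over 15401 genes by Benjamini-Hochberg. A gene was called higher or lower where the adjusted p lay under 0.05 and the change was at least 1.2-fold. MK-8722 replicate 4 of the DKO MEFs, from passage 8, stood apart from the other 3 for ATF4 targets, aminoacyl-tRNA synthetases and sterol genes, and values without it are given there. It also stood apart for single genes of other lists, such as *Ciart* and *Myc*, which are flagged further below. MK-8722 replicate 3 had an RNA integrity number of 7.9, against 9.7 to 9.9 in the other drug-treated DKO libraries. Summed fibroblast markers reached 7880 to 8730 CPM under torin1 and 6360 to 7070 CPM under MK-8722, with 4 of 12 tested markers called higher, *Pdgfra* and *Fn1* among them, and 3 lower. *Thy1*, *Lum* and *Dcn*, also fibroblast markers, were at or near 0. Epithelial markers, mostly *Krt8*, summed to 10 to 14.6 CPM under torin1 and 5.87 to 11 under MK-8722, and 3 of 4 tested were called higher with torin1 and 0 lower. Macrophage markers summed to 13.4 to 17 and 13.6 to 18.5 CPM, and the endothelial ones stayed below 0.5 CPM in these 8 libraries. The part of cell composition in the results was not tested, and in bulk RNA fewer cells of a type and less RNA per cell cannot be told apart.

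*Tfeb* and *Tfe3* transcripts were still counted in the knockout, and both were lower with torin1. *Tfe3* reached 89.5, 94.8, 95 and 90.4 CPM under torin1 and 115, 116, 115 and 118 CPM under MK-8722, without overlap between the groups (-0.33 ± 0.032 (SE), adjusted p = 8.53e-09). WT MEFs had 77.5 to 83.3 and 94.6 to 101 CPM, so the knockout is not seen in the total count of this gene. *Tfeb* stood at 1.34 to 1.69 CPM under torin1 and 1.85 to 2.21 CPM under MK-8722, against 14.01 to 16.2 and 15.5 to 19.3 CPM in WT MEFs. Its call in DKO MEFs was the weaker one. It was lost in 4 of 33 alternative settings, and the adjusted p reached 0.0476 with 1 library left out. *Mitf*, which encodes a related factor that also binds CLEAR elements, was 1.74-fold higher with torin1 in DKO MEFs, at 35.6, 43.1, 40.4 and 39.2 against 18.9, 30.2, 23.8 and 18.5 CPM (adjusted p = 1.20e-05). *Tfec*, the fourth member of the family, did not pass the filter on low counts.

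In DKO MEFs 3253 genes were higher with torin1 than with MK-8722 (21.1% of those tested) and 2973 were lower (19.3%). Either way, 40.4% of all genes tested were called, a share to set beside the list counts below. The 4 torin1 and 4 MK-8722 libraries did not overlap for 2888 of the higher and 2740 of the lower genes. The difference was at least 2-fold for 699 higher and 315 lower genes, and the median log2 fold change was 0.593 among the higher and -0.477 among the lower genes. Over all genes tested the median was 0.005. Along the first principal component of the 12 DKO libraries, which held 45.4% of the variance, torin1 libraries lay between -43.4 and -42.0, MK-8722 libraries between 17.01 and 20.75 and DMSO libraries between 21.4 and 26.2. MK-8722 libraries thus lay near the vehicle on this axis. Against DMSO, torin1 raised 3542 genes (23%) and lowered 3111 (20.2%), while MK-8722 raised 843 (5.47%) and lowered 495 (3.21%). Both contrasts use the same DMSO libraries, so their values stand side by side without a test between them.

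**Figure D1:**
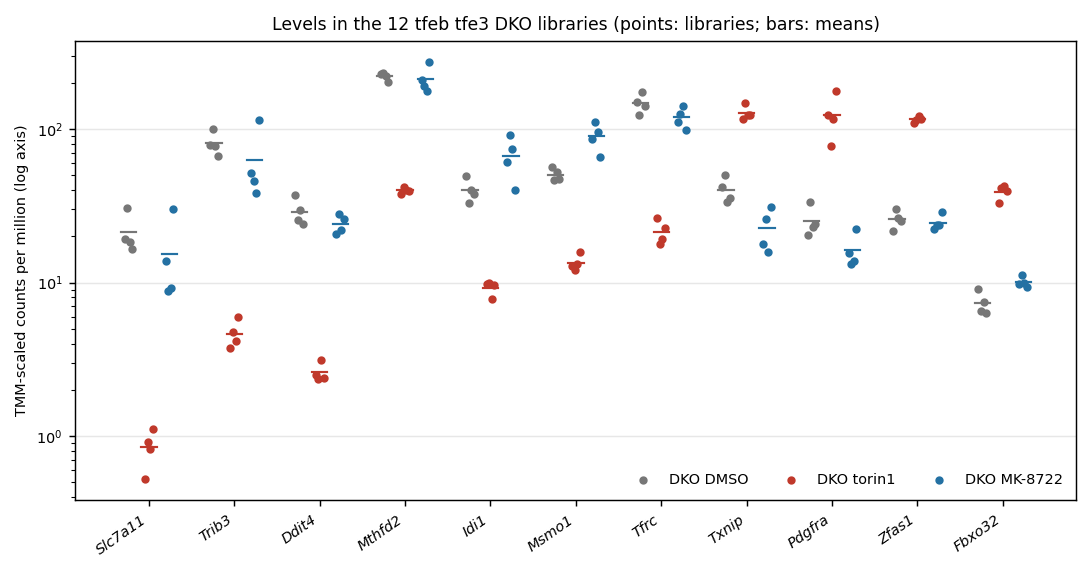
CPM of named genes in each DKO library under DMSO, torin1 and MK-8722 (log axis). Points are libraries and bars the means of 4, and *Trib3*, for example, lies at 3.73 to 5.93 CPM under torin1 and at 38.6 to 114.5 CPM under MK-8722.

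Most drug differences of WT MEFs had the same direction in DKO MEFs. With torin1 against MK-8722, WT MEFs had 3833 higher genes (24.9%) and 3083 lower genes (20%). Of the higher genes, 2291 were called higher in DKO MEFs too, which is 59.8% of the WT list and 70.4% of the DKO list. Of the lower genes, 2127 were lower in both, which is 69% of the WT list and 71.5% of the DKO list. The sign was the same for 89.5% of the genes higher in WT MEFs and 93.1% of those lower. Their median log2 fold change was 0.652 in WT and 0.468 in DKO MEFs for the higher genes, and -0.476 and -0.397 for the lower genes. These genes were picked by their WT call, which favours the WT medians, so a weaker difference in DKO MEFs is not shown. Genes with large WT differences were kept in similar shares, with 588 of 977 genes at least 2-fold higher (60.2%) and 206 of 272 at least 2-fold lower (75.7%).

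The interaction, the drug difference in DKO minus that in WT MEFs, tested whether a difference had changed. It was called for 960 genes toward a more positive value (6.23%) and for 745 toward a more negative one (4.84%). That split turned with the scaling, since library size alone without TMM gave 701 and 1105. A WT difference was counted as lost where DKO MEFs had no call and the interaction was called toward 0. By this measure 274 of the higher WT genes (7.15%) and 288 of the lower ones (9.34%) were lost, and a further 24 and 47 were called in the opposite direction. Torin1 and MK-8722 libraries of DKO MEFs share their passages, and with passage as a block 1263 interactions were called toward a more negative value and 463 higher WT genes were lost. For 1244 higher genes (32.5%) and 621 lower genes (20.1%) the DKO call was missed without an interaction call, so neither persistence nor loss was shown. Among the kept genes the interaction was not called for 2097 higher and 1936 lower ones. A smaller difference in DKO MEFs was called for 79 and 111 kept genes and a larger one for 115 and 80. DKO MEFs also had calls that WT MEFs lacked, 915 higher and 822 lower, of which 281 and 213 had a called interaction. Since the WT libraries enter both the WT call and the interaction, these counts are a description.

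**Figure D2:**
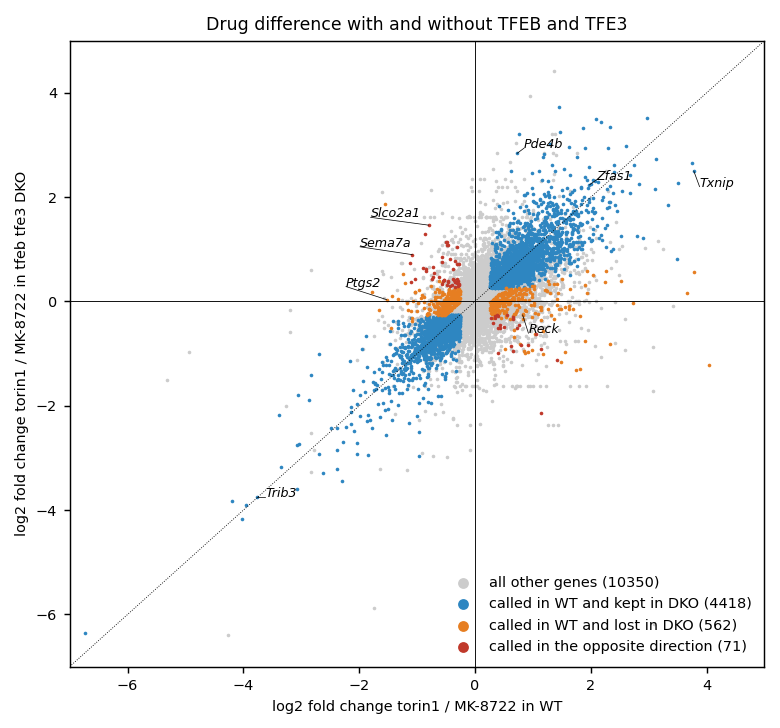
Log2 fold change of torin1 against MK-8722 in WT MEFs (x axis) and in DKO MEFs (y axis), 1 point per gene tested. The 4418 kept genes lie along the diagonal, 562 lost genes near 0 on the y axis, and 71 genes in the opposite quadrants. 1 gene lies outside the axes.

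Targets of ATF4, the factor that drives amino acid synthesis and uptake, were lower with torin1 with and without TFEB and TFE3. Of 36 members tested, 33 were lower with torin1 in DKO MEFs and 0 were higher, with a median log2 fold change of -1.497. WT MEFs had 35 lower and 0 higher, with a median of -1.364, and 33 of these 35 were kept. The 3 members without a call in DKO MEFs were *Slc7a3* (-0.39), *Nupr1* (0.14) and *Cebpb* (0.19). The summed CPM of the list was 2752, 2859, 2912 and 2869 with torin1, and 6037, 5587, 5565 and 8717 with MK-8722. DMSO libraries reached 7057, 8916, 7472 and 7165. MK-8722 replicates 1 to 3 lay below all of these and replicate 4 within their range, while torin1 libraries lay much lower. The median against DMSO was -1.8 for torin1, with 33 members lower, and -0.183 for MK-8722, with 3 members lower. Without MK-8722 replicate 4 the list still had 32 lower members and a median of -1.291, and 1 member was then called higher.

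Promoters of 3 of these genes are shown because they hold the letters TGATGNAA, the core of the element that ATF4 and its partners bind. Each is the RefSeq window from 250 bases before to 50 bases after the start on GRCm38.p6, read 5′ to 3′ on the strand of the gene, with the match on either strand in capitals. *Slc7a11* has 2 matches (chr3:50443564-50443863, minus strand), *Trib3* has 1 (chr2:152344011-152344310, minus strand) and *Chac1* has 1 (chr2:119350992-119351291, plus strand).
Slc7a11: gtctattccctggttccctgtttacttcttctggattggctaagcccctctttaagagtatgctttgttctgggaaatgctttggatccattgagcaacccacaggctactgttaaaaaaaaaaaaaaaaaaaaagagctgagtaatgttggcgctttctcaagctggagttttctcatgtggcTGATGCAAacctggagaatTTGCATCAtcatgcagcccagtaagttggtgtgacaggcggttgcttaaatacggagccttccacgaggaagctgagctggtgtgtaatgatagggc
Trib3: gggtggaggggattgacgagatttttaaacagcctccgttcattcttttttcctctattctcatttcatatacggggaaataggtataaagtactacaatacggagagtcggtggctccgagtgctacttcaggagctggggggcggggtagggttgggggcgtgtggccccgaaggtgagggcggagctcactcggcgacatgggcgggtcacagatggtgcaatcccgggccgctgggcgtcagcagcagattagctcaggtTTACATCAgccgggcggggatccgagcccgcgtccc
Chac1: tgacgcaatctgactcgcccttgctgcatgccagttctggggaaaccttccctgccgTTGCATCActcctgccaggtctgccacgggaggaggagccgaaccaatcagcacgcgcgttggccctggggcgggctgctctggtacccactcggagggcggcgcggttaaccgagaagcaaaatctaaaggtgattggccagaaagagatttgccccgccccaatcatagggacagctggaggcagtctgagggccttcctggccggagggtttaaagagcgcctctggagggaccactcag
Over the list, 10 of 32 genes with a window held TGATGNAA (31.2%), and 5 of 13 tRNA synthetase genes did (38.5%), against 4.51% of all genes in the promoter table and 2.66% of the genes tested. The CLEAR core TCACGTGA was found for 0 of the 32 genes and for 2 of the 13 synthetase genes (15.4%), *Aars* and *Farsb*. Only 2.16% of the genes tested hold it, so a list of 32 genes could not show a lack of it. A match is a run of letters and not a shown binding site.

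*Slc7a11*, the cystine transporter subunit that feeds glutathione synthesis, was at 0.523, 0.919, 0.826 and 1.11 CPM under torin1 and at 13.8, 8.78, 9.17 and 30.03 CPM under MK-8722. No torin1 library came near an MK-8722 library, and the difference was 18.1-fold (-4.18 ± 0.47 (SE), adjusted p = 8.70e-08). It was 16.3-fold in WT MEFs, and the interaction was -0.15 ± 0.78 (adjusted p = 0.928). *Trib3*, a pseudokinase that restrains ATF4 and AKT, was at 3.73, 4.74, 4.17 and 5.93 CPM under torin1 and 51.7, 46.1, 38.6 and 114.5 CPM under MK-8722. The groups did not overlap, and *Trib3* was 13.5-fold lower with torin1 in DKO MEFs (adjusted p = 2.28e-10) and 13.7-fold lower in WT MEFs. *Mthfd2*, the mitochondrial folate enzyme, was at 37.6, 42.05, 39.99 and 39.6 CPM against 209, 191, 176 and 275 CPM (-2.42 ± 0.11 (SE), adjusted p = 7.00e-14). *Slc6a9*, the glycine transporter, and *Cth*, which makes cysteine from cystathionine, were 6.47-fold and 6.56-fold lower with torin1. In both genes MK-8722 replicate 4 was far above the other MK-8722 libraries, at 149.5 CPM for *Slc6a9* and 51.3 CPM for *Cth*. Without that library the log2 fold changes were -2.17 and -2.04, against -2.69 and -2.71 with it. *Trib3* and *Slc7a11* were then at -3.29 and -3.64.

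*Atf4* mRNA itself was lower with torin1, at 149.9, 146, 156 and 162 CPM against 329, 342.5, 315 and 498 CPM, without overlap (-1.27 ± 0.098 (SE), adjusted p = 2.64e-10). The difference was 2.42-fold in DKO and 2.605-fold in WT MEFs. *Fgf21*, which encodes a stress hormone, had 0 counts in the 4 torin1 libraries and 39 counts in the 4 MK-8722 libraries, so it was at least 12.9-fold lower with a floor of 3 counts over the group. With *Fgf21* at that bound the median of the list was -1.496. *Ddit4* and *Sesn2*, ATF4 targets whose proteins restrain MTORC1, were at 2.501, 2.35, 3.13 and 2.39 and 8.77, 9.52, 8.19 and 8.18 CPM under torin1. With MK-8722 they were at 20.6, 28.04, 22.1 and 25.8 and 32.2, 39.03, 30.7 and 44.6 CPM. Both differences were larger in DKO than in WT MEFs, 9.28-fold against 5.19-fold for *Ddit4* (interaction adjusted p = 0.00568) and 4.22-fold against 2.93-fold for *Sesn2* (adjusted p = 0.0146). *Chac1*, which degrades glutathione, was lower with torin1 in DKO MEFs too (log2 -2.17). Its interaction was called as well, which need not mean a larger difference in the knockout. Interactions of the ATF4 list were called for 3 members toward a more positive value and for 2 toward a more negative one, beside 6.23% and 4.84% of all genes.

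Cytosolic aminoacyl-tRNA synthetases, which charge tRNAs for translation, moved in the same direction. Of 20 genes, 15 were lower and 2 higher with torin1 in DKO MEFs, with a median of -0.691, and WT MEFs had 15 lower and 1 higher with a median of -0.632. All 16 genes called in WT MEFs were kept, and 0 had a called interaction. Summed CPM was 3970 to 4167 with torin1, and 5763, 5459, 5393 and 7309 with MK-8722, of which replicate 4 was the highest. Without it 14 were lower and the median was -0.556. *Aars*, the alanyl-tRNA synthetase, was at 274, 289, 286 and 294 CPM under torin1 and 748, 704, 664 and 1043 CPM under MK-8722, with no overlap (-1.47 ± 0.10 (SE), adjusted p = 5.12e-11). *Yars* and *Cars*, for tyrosine and cysteine, differed by -1.32 ± 0.093 and -1.30 ± 0.11. The 2 genes higher with torin1 were *Qars* and *Dars*, both at 0.31.

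**Figure D3:**
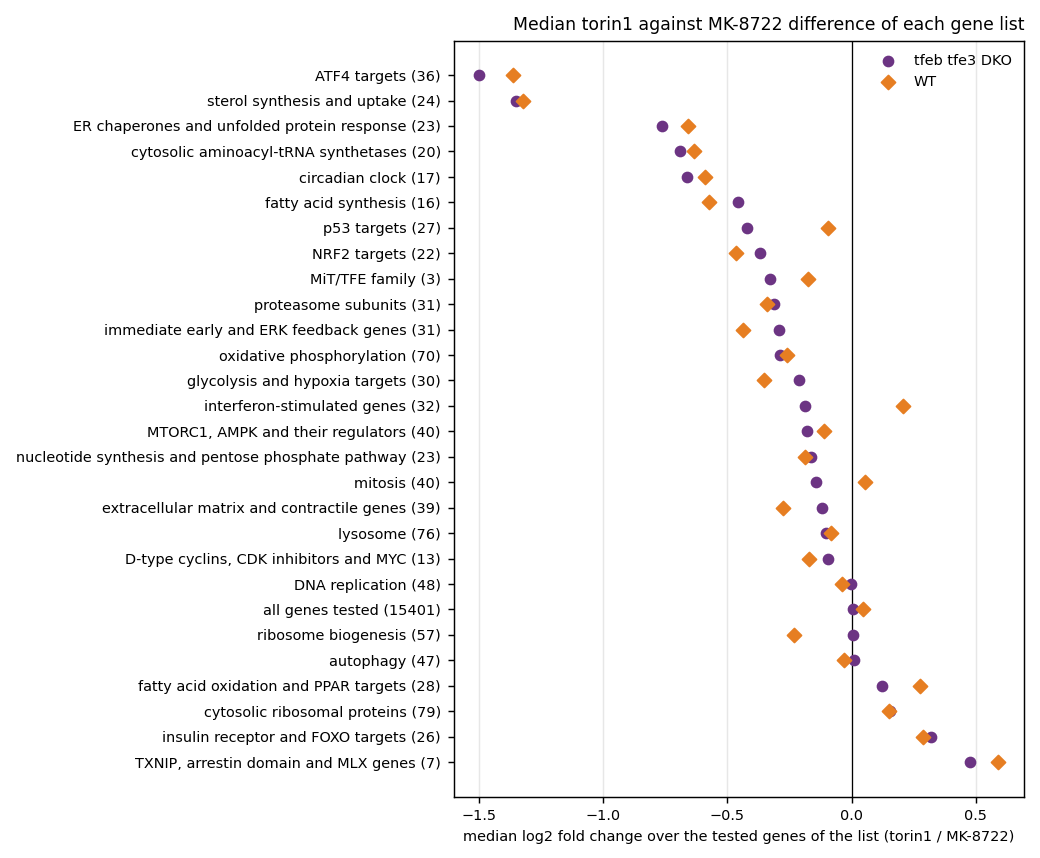
Median log2 fold change of torin1 against MK-8722 of each gene list in DKO and in WT MEFs (x axis). ATF4 targets lie furthest to the left, at -1.497 in DKO and -1.364 in WT MEFs, while all genes tested lie at 0.005 and 0.045.

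Sterol synthesis and uptake genes, targets of SREBP2, were lower with torin1 than with MK-8722, and against the vehicle torin1 lowered and MK-8722 raised members of the list. Of 24 genes, 22 were lower and 0 higher in DKO MEFs (median -1.348). WT MEFs had 23 lower and 0 higher (median -1.323), of which 22 were kept, and 0 had a called interaction. *Fdft1* (-0.33) and *Ebp* (-0.24) were the 2 without a call. Against DMSO in DKO MEFs, torin1 lowered 22 genes and raised 0 (median -0.793), whereas MK-8722 raised 13 and lowered 0 (median 0.469). Summed CPM was 752.3, 784.5, 746.3 and 761.9 with torin1, 1963, 2558, 2268 and 1542 with MK-8722, and 1616, 1193, 1419 and 1342 with DMSO. MK-8722 replicate 4 was the lowest of its group and overlapped the vehicle. Without it 23 genes were lower, with a median of -1.5.

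*Idi1*, an isomerase of the mevalonate pathway, was at 9.71, 9.92, 7.797 and 9.68 CPM under torin1 and 61.5, 92.2, 74.2 and 39.9 CPM under MK-8722, while DMSO libraries were at 33.2 to 49.2 CPM. All 4 torin1 libraries lay below the vehicle, and MK-8722 replicate 4 lay within its range. The drug groups were apart by 7.21-fold in DKO MEFs (-2.85 ± 0.23 (SE), adjusted p = 5.81e-10) and by 5.25-fold in WT MEFs. Set against the vehicle, torin1 changed *Idi1* by -2.11 ± 0.23 (adjusted p = 4.70e-08) and MK-8722 by 0.74 ± 0.21 (adjusted p = 0.0143). *Msmo1*, a sterol demethylase, was at 12.8, 11.98, 13.2 and 15.9 CPM under torin1 and 85.8, 111.5, 96.4 and 65.4 CPM under MK-8722, on either side of the 46.3 to 56.5 CPM of the DMSO libraries. It was 6.66-fold lower with torin1 (-2.74 ± 0.18 (SE), adjusted p = 1.58e-11) and 8.19-fold lower in WT MEFs, with 0.83 ± 0.16 for MK-8722 against DMSO (adjusted p = 0.000949). Neither interaction was called (adjusted p = 0.357 and 0.455).

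Fatty acid synthesis genes followed in part. Of 16 genes, 12 were lower and 1 higher in DKO MEFs (median -0.458), against 10 lower and 0 higher in WT MEFs (median -0.574), all 10 of them kept. *Scd2*, a stearoyl-CoA desaturase, was at 88.97, 131, 105 and 78.7 CPM under torin1 and 433, 809, 597 and 313 CPM under MK-8722, with no overlap despite the wide spread under MK-8722 (-2.41 ± 0.28 (SE), adjusted p = 1.46e-07). *Elovl6*, a fatty acid elongase, was at 10.3, 11.3, 10.5 and 11.6 against 38.2, 48.4, 44.7 and 36.4 CPM, 3.83-fold lower with torin1. *Mid1ip1*, whose product activates acetyl-CoA carboxylase, was 2.24-fold lower in DKO and 3.04-fold lower in WT MEFs, a smaller difference in the knockout (interaction 0.44 ± 0.090, adjusted p = 0.00197). The 1 gene higher was *Srebf1*, which encodes SREBP1, at 141.5, 139, 136 and 138 against 113, 124.5, 111 and 105 CPM (0.29 ± 0.058), a call that missed the fold threshold without MK-8722 replicate 4. In WT MEFs *Srebf1* differed by -0.034 ± 0.058 (interaction adjusted p = 0.00886).

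**Figure D4:**
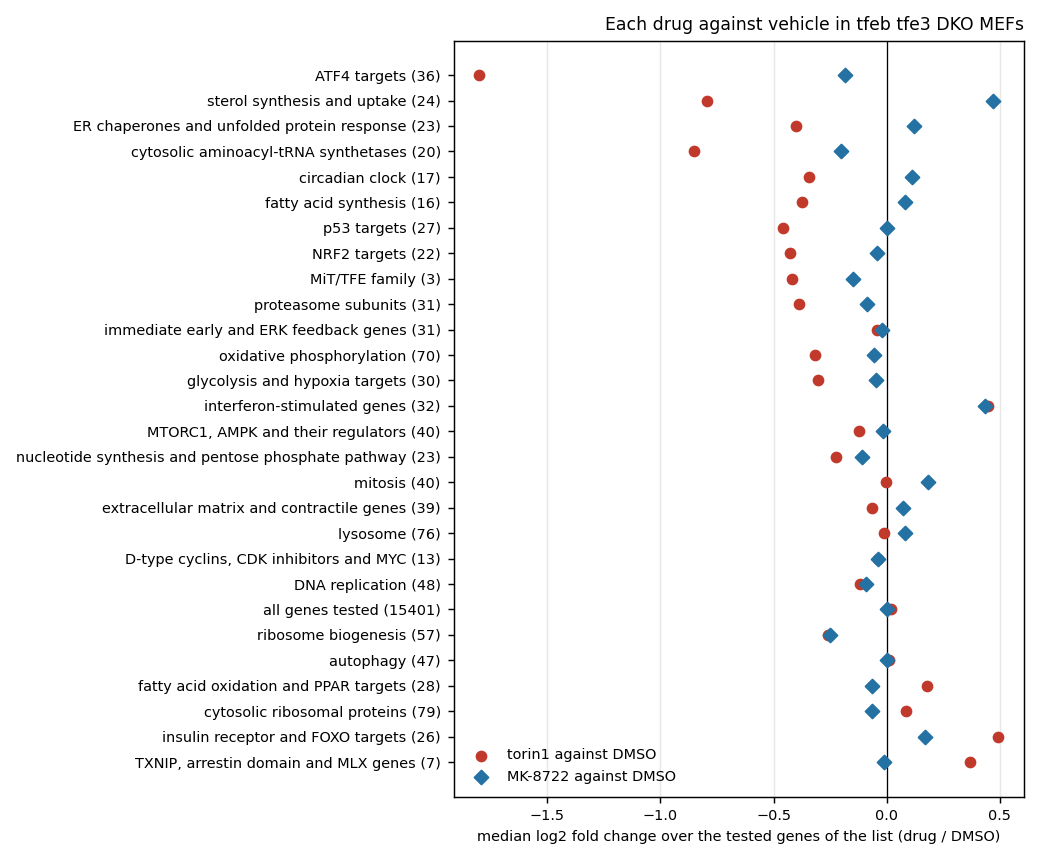
Median log2 fold change of each gene list against DMSO in DKO MEFs, for torin1 and for MK-8722. Sterol genes lie at -0.793 with torin1 and 0.469 with MK-8722, and ATF4 targets at -1.8 and -0.183.

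Chaperones of the endoplasmic reticulum and genes of the unfolded protein response were lower with torin1 for 17 of 23 members and higher for 1 (median -0.762). WT MEFs had 15 lower and 1 higher (median -0.656), and all 16 were kept. *Xbp1*, a factor of this response, was at 23.97, 24.5, 26.1 and 22.3 CPM under torin1 and 61.2, 71.5, 71.1 and 48.9 CPM under MK-8722 (-1.38 ± 0.12 (SE), adjusted p = 8.33e-10). *Herpud1*, which helps degrade misfolded proteins, was 3.94-fold lower in DKO and 2.52-fold lower in WT MEFs, a larger difference in the knockout (interaction adjusted p = 0.0157). *Sdf2l1*, a chaperone cofactor, was 2.66-fold lower and *Hspa5*, the main luminal HSP70, differed by -1.21.

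Mitochondrial and proteasome subunits differed less per gene, and all of those called were lower with torin1. Of 70 oxidative phosphorylation genes, 37 were lower and 0 higher with torin1 in DKO MEFs (median -0.287), against 34 lower and 0 higher in WT MEFs (median -0.258). Of those 34, 32 were kept, and 0 of the 70 had a called interaction. *Uqcrq*, a complex III subunit, was at 63.6, 56.5, 64.9 and 59.4 against 117, 96.2, 118 and 128 CPM (-0.91 ± 0.076 (SE), adjusted p = 8.70e-10). *Uqcr11* and *Ndufs5*, subunits of complexes III and I, were 1.6-fold and 1.59-fold lower. Of 31 proteasome subunits, 19 were lower and 0 higher (median -0.313), and WT MEFs had 22 lower and 0 higher (median -0.342), with 18 kept. *Psmb3*, a subunit of the core particle, was at 87.7, 90.96, 89.2 and 83.7 against 134, 136, 142 and 138 CPM, and *Psmd7* and *Psmd13*, of the lid, were 1.54-fold and 1.51-fold lower.

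NRF2 targets, which counter oxidants, had 15 lower and 1 higher of 22 with torin1 (median -0.37), and 14 lower and 0 higher in WT MEFs (median -0.464), with 13 kept. Their interaction was called toward a more positive value for 4 and toward a more negative one for 0, beside 6.23% and 4.84% of all genes. *Hmox1*, which degrades heme, was at 43.1, 45.8, 42.4 and 44.5 against 78.2, 71.8, 69.2 and 103 CPM, and *Prdx1*, a peroxiredoxin, was at 206, 208, 202 and 193 against 337, 327, 353 and 308 CPM. Both pairs of groups were without overlap. *Slc7a11* belongs to this list as well as to the ATF4 targets. Glycolysis and hypoxia targets had 13 lower and 3 higher of 30 (median -0.21), with 19 lower and 3 higher in WT MEFs (median -0.351). Without torin1 replicate 1 the higher members numbered 1. *Hk2*, the inducible hexokinase, was at 26.8, 27.8, 28.2 and 30.5 CPM under torin1, 81.2, 81.9, 83.6 and 91.4 CPM under MK-8722 and 50.3 to 63.5 CPM under DMSO. Torin1 lowered it (log2 -1.04 ± 0.081) and MK-8722 raised it (log2 0.54 ± 0.079, adjusted p = 5.67e-05). *Slc2a1*, the glucose transporter GLUT1, was 2.05-fold lower with torin1 than with MK-8722. *Car12*, a carbonic anhydrase, stayed below 1 CPM in these 8 libraries and differed by -1.40 ± 0.23.

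Nucleotide synthesis and pentose phosphate genes were split, with 7 lower and 2 higher of 23 (median -0.162). Called in DKO MEFs were 39.1% of this list, beside 40.4% of all genes tested. *G6pdx* and *Rpia*, of the pentose phosphate pathway, were 1.605-fold and 1.7-fold lower with torin1, while *Paics*, of purine synthesis, was higher at 429, 423, 442 and 471 against 289, 284.5, 296 and 302 CPM (0.59 ± 0.033, adjusted p = 1.24e-12). WT MEFs had 10 lower and 1 higher, of which 8 in all were kept.

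Few genes for cytosolic ribosomal proteins were called. Of 79, 6 were higher with torin1 and 0 lower in DKO MEFs (7.59%, beside 21.1% of all genes called higher, median 0.154), and WT MEFs had 7 higher and 0 lower (median 0.152), with 4 kept. By the adjusted p alone, without the fold threshold, 68 were higher and 1 was lower. Without MK-8722 replicate 3, the library of the low RNA integrity number, 16 were called higher, and with library size alone in place of TMM 17 were. *Rpl10a*, of the large subunit, was at 1000, 1001, 987 and 989 CPM under torin1 and 636.5, 611.5, 647 and 631.5 CPM under MK-8722 (0.65 ± 0.033 (SE), adjusted p = 3.65e-13). *Rpl12* and *Rpl3* were 1.34-fold and 1.32-fold higher. Reads of processed pseudogenes can be shared with ribosomal protein genes, which makes their exact counts uncertain. *Zfas1*, a snoRNA host gene, was at 110.2, 115, 122.5 and 116 CPM under torin1 and 22.3, 23.9, 23.6 and 28.7 CPM under MK-8722. It was 4.71-fold higher in DKO (adjusted p = 7.78e-16) and 3.94-fold higher in WT MEFs. *Epb41l4aos*, a further noncoding gene, was 3.83-fold higher with torin1 in DKO and 2.18-fold higher in WT MEFs (interaction adjusted p = 0.000538). The strand setting of the counting is not given in the sources used here, so reads of genes that overlap these 2 on the other strand may be included.

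For ribosome biogenesis genes the drug difference was not the same in both genotypes. In WT MEFs 28 of 57 were lower and 4 higher with torin1 than with MK-8722 (median -0.232), but in DKO MEFs 13 were lower and 11 higher (median 0.007, which turned negative without torin1 replicate 4 or MK-8722 replicate 1, 2 or 3). The interaction was called toward a more positive value for 18 and toward a more negative one for 0, beside 6.23% and 4.84% of all genes, and 17 of the 32 WT calls were kept and 7 lost. Against DMSO in DKO MEFs, torin1 lowered 27 and MK-8722 lowered 24, with medians of -0.258 and -0.251. Without MK-8722 replicate 4 the higher members numbered 17. *Bysl*, of the small subunit pathway, was at 55.4, 57.4, 60.3 and 59.9 against 82.6, 74.04, 82.3 and 89.8 CPM, 1.41-fold lower in DKO and 1.897-fold lower in WT MEFs (interaction 0.43 ± 0.072, adjusted p = 0.000401). *Polr1c*, shared by RNA polymerases I and III, was 1.51-fold higher with torin1 in DKO and 1.49-fold higher in WT MEFs. *Nle1*, of the large subunit pathway, was 1.47-fold higher. *Ncl*, which encodes nucleolin, was at 1583, 1686, 1699 and 1783 and 1593, 1618, 1687 and 1887 CPM, with overlapping groups and no call (-0.0075 ± 0.056, adjusted p = 0.928).

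Insulin receptor and FOXO target genes were called in both directions, more often higher than lower with torin1. Of 26 genes, 13 were higher and 5 lower in DKO MEFs (median 0.32), and WT MEFs had 13 higher and 6 lower (median 0.286), with 12 of 19 kept and 3 lost. The interaction was called toward a more positive value for 7 and toward a more negative one for 5 of the 26, beside 6.23% and 4.84% of all genes. Against DMSO torin1 raised 18 and lowered 6 (median 0.494), while MK-8722 raised 4 and lowered 1 (median 0.168). *Fbxo32*, the ubiquitin ligase atrogin-1, was at 32.97, 41.1, 42.5 and 39.7 CPM under torin1 and 9.85, 11.2, 9.94 and 9.33 CPM under MK-8722, well apart (1.96 ± 0.091 (SE), adjusted p = 9.42e-14). *Ccng2*, an atypical cyclin, was at 45.4, 46.2, 47.3 and 45.7 against 14.8, 15.8, 14.7 and 11.9 CPM, 3.23-fold higher in both genotypes. *Pdk4*, which limits pyruvate entry into mitochondria, was 3.04-fold higher in DKO and 2.35-fold higher in WT MEFs. *Insr*, the insulin receptor, was 1.46-fold higher with torin1 (adjusted p = 1.24e-10). *Irs2*, its adaptor, was 2.16-fold higher in DKO and 1.699-fold higher in WT MEFs. The 5 lower genes were *Bcl6*, *Gadd45a*, *Pik3r1*, *Tob1* and *Sesn3*, between -1.28 and -0.27. The letters TGTTTAC, a FOXO motif, were in promoter windows of 3 of 23 genes of the list (13%), in 2.93% of the genes tested and in 4.05% of all genes in the promoter table. The 3 were *Sesn1*, *Trim63* and *Btg1*, none of them among the genes described above. A form of the CLEAR core, GTCACGTG, was in 4 of the 23 (17.4%), *Irs2* and *Bcl6* among them, against 4.72% of the genes tested.

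*Txnip*, an arrestin that limits glucose uptake, was higher with torin1 in both genotypes. It stood at 117, 148, 124 and 124 CPM under torin1, 17.9, 26.03, 15.7 and 31.03 CPM under MK-8722 and 33.7 to 49.9 CPM under DMSO. Torin1 libraries were above and MK-8722 libraries below every DMSO library, with log2 changes against DMSO of 1.67 ± 0.23 (adjusted p = 1.45e-06) and -0.83 ± 0.23 (adjusted p = 0.0131). The drugs differed 5.66-fold in DKO and 13.7-fold in WT MEFs, a smaller difference in the knockout (interaction -1.28 ± 0.34, adjusted p = 0.0124). *Arrdc4*, its paralog, was 2.07-fold higher with torin1 in DKO and 4.802-fold higher in WT MEFs (interaction adjusted p = 0.00564). Among the 7 genes of this list, 4 were higher and 1 lower in DKO MEFs (median 0.475), and 5 and 2 in WT MEFs (median 0.591), with 5 of the 7 WT calls kept. The lower gene was *Mlx*, a partner of the glucose-sensing factors, at 20.5, 20.1, 18.5 and 19.9 against 40.96, 40.5, 39.5 and 40.01 CPM.

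Fatty acid oxidation and PPAR targets had 7 higher and 5 lower of 28 in DKO MEFs (median 0.121), and 12 higher and 4 lower in WT MEFs (median 0.276), with 9 of 16 kept. The share called in DKO MEFs, 42.9%, was near the 40.4% of all genes tested. Without torin1 replicate 4 or MK-8722 replicate 1 the lower members numbered 3. *Cpt1a*, which imports fatty acids into mitochondria, was at 47, 41.9, 47.9 and 44.99 CPM under torin1 and 15.8, 14.96, 15.7 and 13.9 CPM under MK-8722. It was 3.01-fold higher in DKO (adjusted p = 1.56e-14) and 3.25-fold higher in WT MEFs. *Angptl4*, a lipoprotein lipase inhibitor, was at 3.21, 3.38, 4.38 and 3.47 against 0.378, 0.642, 1.05 and 0.501 CPM, 5.58-fold higher. *Ppargc1a*, a coactivator of mitochondrial genes, stayed under 1 CPM in these 8 libraries and was not called (0.59 ± 0.41, adjusted p = 0.234).

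Lysosome genes, the best known targets of TFEB and TFE3, were split between the drugs. Of 76 genes, 18 were lower and 8 higher with torin1 than with MK-8722 in DKO MEFs (median -0.103), and 18 and 14 in WT MEFs (median -0.081). Over all genes, 19.3% were lower and 21.1% higher in DKO MEFs. Of the 32 WT calls, 21 were kept and 4 lost, *Arsa*, *Lipa*, *Tpp1* and *Gnptg*. Interactions were called for 4 toward a more positive and 7 toward a more negative value, beside 6.23% and 4.84% of all genes. Against DMSO in DKO MEFs, torin1 raised 16 members and lowered 15 (median -0.013), and MK-8722 raised 9 and lowered 0 (median 0.081), beside 5.47% of all genes raised by MK-8722. The CLEAR core TCACGTGA was in promoter windows of 14 of 64 genes of the list (21.9%), against 2.16% of the genes tested and 1.12% of all genes in the promoter table. *Neu1*, a sialidase, was at 14.5, 14.3, 14.4 and 13.01 CPM under torin1, 37.01, 35.1, 36.01 and 32.99 CPM under MK-8722 and 24.2 to 26.3 CPM under DMSO. It was 2.51-fold lower with torin1 than with MK-8722 in DKO (adjusted p = 2.28e-13) and 2.67-fold lower in WT MEFs. *Ostm1*, a chloride transporter subunit, was 2.37-fold lower in DKO and 1.77-fold lower in WT MEFs (interaction adjusted p = 0.00209). Subunits of the vacuolar ATPase made up 9 of the 18 lower genes, from *Atp6v0b* at -0.78 to *Atp6v1c1* at -0.34. *Idua*, an iduronidase, was among the higher genes at 13.96, 11.8, 12.1 and 13.4 against 7.24, 6.38, 7.21 and 6.59 CPM. *Gpnmb*, a membrane glycoprotein of lysosomes, was at 6.38, 3.05, 3.52 and 4.65 against 4.67, 2.73, 2.94 and 3.47 CPM, with overlap and no call in DKO MEFs (adjusted p = 0.285). With passage as a block it was called higher with torin1 by 0.345 on the log2 scale (adjusted p = 0.0409).

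Autophagy genes were called in both directions in both genotypes. Of 47 genes, 14 were higher and 13 lower in DKO MEFs (median 0.008), and 15 and 11 in WT MEFs (median -0.032), with 21 of 26 kept. Interactions were called for 5 toward a more positive and 2 toward a more negative value, beside 6.23% and 4.84% of all genes. *Calcoco1*, a receptor for autophagy of the endoplasmic reticulum, was at 202, 211.5, 213 and 217 CPM under torin1, 71.6, 75.4, 72.7 and 73.4 CPM under MK-8722 and 46.9 to 57.02 CPM under DMSO. Both drugs raised it, by 2.06 ± 0.049 and 0.53 ± 0.048 on the log2 scale, and they differed 2.88-fold in DKO and 2.33-fold in WT MEFs (interaction adjusted p = 0.00326). *Atg14*, of the PI3-kinase complex, was at 23.9, 25.1, 25.8 and 25.8 against 10.8, 10.1, 11.2 and 11.1 CPM (1.22 ± 0.059 (SE), adjusted p = 1.62e-13). *Wdr45*, which binds PI3P, was 2.44-fold higher. *Atg4d* (-1.10) and *Atg4a* (-0.85), proteases that process LC3 proteins, led the lower genes. *Sqstm1*, the receptor p62, was at 622, 609, 681 and 652 against 621, 599.6, 609.5 and 880.2 CPM, with overlap and no call (adjusted p = 0.578).

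MTORC1, AMPK and their regulators had 16 lower and 8 higher of 40 in DKO MEFs (median -0.179), and 14 and 8 in WT MEFs (median -0.112), with 14 of 22 kept and 5 lost. Interactions were called for 4 toward a more positive and 9 toward a more negative value, beside 6.23% and 4.84% of all genes. *Ddit4* and *Sesn2*, described with the ATF4 targets, led the lower genes. *Castor2*, whose product binds the MTORC1 regulator GATOR2, was 2.11-fold lower with torin1. *Flcn*, the folliculin gene whose product controls RRAGC and RRAGD, was at 29.8, 26.4, 28.8 and 26.3 against 41.3, 37.5, 39.4 and 44.05 CPM (-0.54 ± 0.065 (SE), adjusted p = 2.19e-07). In WT MEFs both drugs stood above DMSO for *Flcn*, at 53.7 to 65.95 and 77.4 to 85.8 CPM against 31.1 to 32.8 CPM. In DKO MEFs torin1 was below DMSO (log2 -0.60 ± 0.065), and MK-8722 was not called (log2 -0.055 ± 0.064, adjusted p = 0.614). The drug difference itself was -0.54 ± 0.065 in DKO and -0.40 ± 0.063 in WT MEFs (interaction adjusted p = 0.324). *Fnip1*, the partner of folliculin, was 1.22-fold lower in DKO MEFs, just past the fold threshold. *Mtor* (0.47), *Rictor* (0.54), *Tsc1* (0.35) and *Tsc2* (0.34) were among the higher genes.

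Of the cell cycle genes, D-type cyclins were lower with torin1. *Ccnd2* was at 96.9, 96.2, 89.97 and 86.6 CPM under torin1 and 368.5, 338, 327 and 414 CPM under MK-8722, 3.92-fold lower in DKO and 4.12-fold lower in WT MEFs. *Ccnd1* was at 145, 118, 146 and 162 against 243, 221, 272 and 274 CPM (-0.82 ± 0.11 (SE), adjusted p = 1.18e-06). *Cdkn1a*, the CDK inhibitor p21, was 2.12-fold lower. The list of cyclins, CDK inhibitors and MYC had 6 lower and 3 higher of 13 (median -0.094), and 5 and 1 in WT MEFs (median -0.171). The higher members numbered 1 without torin1 replicate 3 or MK-8722 replicate 1. *Myc* was higher by 0.31 ± 0.13 (adjusted p = 0.0483) with overlapping groups, a call lost without any 1 of 8 libraries. DNA replication genes were split in DKO MEFs, 13 lower and 10 higher of 48 (median -0.001), and 14 and 9 in WT MEFs (median -0.04). Called in DKO MEFs were 47.9% of this list, beside 40.4% of all genes tested. *E2f2* and *Ccne1*, which drive entry into S phase, were 1.98-fold and 1.77-fold lower, whereas *Pole*, the leading strand polymerase, was 1.75-fold higher. Of 40 mitosis genes, 13 were lower and 5 higher in DKO MEFs (median -0.144), against 5 lower and 9 higher in WT MEFs (median 0.053). The interaction was called toward a more negative value for 7 and toward a more positive one for 0, beside 4.84% and 6.23% of all genes. Against DMSO in DKO MEFs, torin1 raised 9 and lowered 4, and MK-8722 raised 8 and lowered 0. *Hmmr*, a spindle protein, was at 82.6, 71.6, 74.99 and 72.5 against 128, 113, 110.3 and 92.8 CPM, while the kinetochore genes *Ndc80* and *Cenpe* were 1.87-fold and 1.47-fold higher with torin1.

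p53 targets had 15 lower and 5 higher of 27 in DKO MEFs (median -0.419), and 12 and 5 in WT MEFs (median -0.094), with 14 of 17 kept and 2 lost. Their interaction was called for 3 toward a more positive and 7 toward a more negative value, beside 6.23% and 4.84% of all genes. *Plk3*, a stress-responsive kinase, was at 14.9, 12.9, 12.3 and 14.2 against 32.9, 33.2, 33.1 and 35.6 CPM (-1.31 ± 0.11 (SE), adjusted p = 1.18e-09). *Eda2r*, a receptor of the TNF family, stayed under 0.5 CPM in the 8 libraries, with overlap between the groups.

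The drug difference of immediate early and ERK feedback genes often changed between the genotypes. Of 31 genes, 12 were lower and 8 higher with torin1 in DKO MEFs (median -0.291), against 16 lower and 3 higher in WT MEFs (median -0.438). The interaction was called for 18 of 31, 13 toward a more positive and 5 toward a more negative value, beside 6.23% and 4.84% of all genes. *Klf2*, a zinc finger factor, was at 15.8, 17.97, 14.3 and 11.4 CPM under torin1, 3.19, 3.05, 2.87 and 3.39 CPM under MK-8722 and 10.8 to 12.1 CPM under DMSO. The difference was 2.25 ± 0.14 (SE), and against DMSO it was 0.41 ± 0.12 for torin1 and -1.84 ± 0.14 for MK-8722. *Egr1* and *Egr3*, factors induced by ERK, were 2.69-fold and 3.78-fold lower with torin1 in DKO MEFs and 1.43-fold and 1.76-fold lower in WT MEFs, with called interactions (adjusted p = 0.00739 and 0.0189). The interactions of *Klf2*, *Egr1* and *Egr3* were -0.59, -0.91 and -1.10. These genes are thus among the 5 toward a more negative value and do not stand for the 13 toward a more positive one.

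Circadian clock genes had 10 lower and 3 higher of 17 (median -0.66), and 10 and 4 in WT MEFs (median -0.588), with 11 of 14 kept. *Ciart*, a repressor of the clock, was at 0.597, 0.698, 0.826 and 0.822 CPM under torin1 and 6.42, 6.06, 5.49 and 14.5 CPM under MK-8722, 10.9-fold lower. With each drug-treated library left out in turn, its log2 fold change lay between -3.594 and -3.015. *Per2*, a core repressor, was 3.51-fold lower in DKO and 1.503-fold lower in WT MEFs (interaction adjusted p = 0.00479). *Hlf*, an output factor, was at 0.784, 0.514, 0.431 and 0.572 against 0, 0, 0.06999 and 0.116 CPM, the reverse direction. Extracellular matrix and contractile genes had 13 lower and 7 higher of 39 (median -0.119), with 17 and 5 in WT MEFs (median -0.277). The collagenase gene *Mmp13* was at 197, 134, 154 and 246 against 61.7, 37.02, 40.6 and 78.9 CPM and the stromelysin gene *Mmp3* at 60.9, 36.4, 37.1 and 55.7 against 28.9, 13.2, 9.03 and 26.3 CPM. Both groups were apart, at 3.35-fold and 2.45-fold higher with torin1. *Col1a1* (-1.01) and *Col1a2* (-1.18), the chains of type I collagen, were lower. *Dcn* was at 0.821, 0.184, 0.1797 and 0.357 against 0.206, 0, 0.03499 and 0.193 CPM, a low count whose call was lost without any 1 of 3 libraries. Among 32 interferon-stimulated genes 1 was called in DKO MEFs, *Ifit2* (lower, -0.51 ± 0.18, adjusted p = 0.0193), a call lost without any 1 of 3 libraries. This count rested on the fit. The 8 DKO libraries alone gave 7 lower and 1 higher, and with passage as a block, in all libraries, 11 were lower and 5 higher.

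Beyond these lists, the genes with the largest differences were led by a receptor and an enzyme. *Pdgfra*, the PDGF receptor alpha, was at 124, 78.03, 117 and 177 CPM under torin1 and 15.6, 13.1, 13.8 and 22.4 CPM under MK-8722, 7.65-fold higher in DKO (adjusted p = 4.34e-10) and 3.72-fold higher in WT MEFs. *Pde4b*, which degrades cAMP, was at 13.5, 15.2, 16.8 and 15.7 CPM under torin1, 2.09, 2.69, 1.96 and 1.81 CPM under MK-8722 and 6.57 to 9.39 CPM under DMSO. Torin1 raised and MK-8722 lowered *Pde4b* in DKO MEFs (1.01 ± 0.12 and -1.83 ± 0.14), and the drugs differed 7.16-fold, against 1.66-fold in WT MEFs. *Itga2*, the collagen-binding integrin alpha 2, was at 82.8, 101, 116 and 149.8 against 13.3, 21.2, 15.1 and 23.9 CPM, 6.13-fold higher in DKO and 2.51-fold higher in WT MEFs. *Klhl24*, a ubiquitin ligase adaptor, was at 99.8, 101, 117 and 116 against 25.5, 28.3, 28.6 and 28.1 CPM (1.97 ± 0.092 (SE), adjusted p = 9.42e-14). *Klf11*, a zinc finger factor, was 3.29-fold higher in DKO and 3.88-fold higher in WT MEFs. *Tfrc*, the transferrin receptor, was at 26.4, 17.9, 19.1 and 22.6 against 112, 126, 142 and 98.5 CPM, 5.57-fold lower with torin1 in DKO (adjusted p = 5.60e-12) and 4.26-fold lower in WT MEFs. The groups of each of these 6 genes were without overlap.

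The largest changes between the genotypes included reversals. *Slco2a1*, a prostaglandin transporter, was at 2.46, 1.87, 2.3 and 2.04 CPM under torin1 and 0.755, 0.481, 0.6999 and 1.195 CPM under MK-8722 in DKO MEFs, but at 44.9 to 48.6 and 77.3 to 86.3 CPM in WT MEFs. Torin1 was thus above MK-8722 in DKO and below it in WT MEFs (1.46 ± 0.15 and -0.80 ± 0.075, interaction adjusted p = 7.05e-08), at very different levels of the gene. *Sema7a*, a semaphorin, was at 15.8, 15.3, 16.2 and 21.3 against 6.87, 9.95, 10.5 and 9.48 CPM in DKO MEFs and at 5.02 to 6.896 against 11.3 to 15.3 CPM in WT MEFs, again with opposite signs (interaction 1.98 ± 0.20, adjusted p = 2.24e-06). *Creb5*, a CREB family factor, was 2.11-fold higher with torin1 in DKO and 1.38-fold lower in WT MEFs (adjusted p = 1.78e-06).

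*Ptgs2*, the inducible cyclooxygenase, was at 159.9, 191, 161 and 165 CPM under torin1 and 154, 184, 186 and 136.5 CPM under MK-8722 in DKO MEFs, with overlap, while WT MEFs had 14.7 to 25.6 and 50.3 to 67.98 CPM. Its WT difference of -1.53 ± 0.14 was lost (interaction 1.56 ± 0.18, adjusted p = 9.11e-06). *Reck*, a metalloprotease inhibitor, was 1.77-fold higher with torin1 in WT MEFs and differed by -0.26 ± 0.094 in DKO MEFs (interaction adjusted p = 1.49e-05). The reverse held for *Aldh4a1*, a proline catabolic enzyme, at 7.17, 8.31, 6.29 and 5.61 against 15.8, 15.5, 14.3 and 11.7 CPM in DKO MEFs and 15.6 to 18.4 against 17.01 to 19.9 CPM in WT MEFs (interaction -0.98 ± 0.14, adjusted p = 7.95e-05). *Hivep3*, a zinc finger factor, was 3.85-fold lower with torin1 in DKO and 1.69-fold lower in WT MEFs (adjusted p = 0.00024). *Creb3l1*, a factor of the secretory pathway, was 3.495-fold lower in DKO and 1.56-fold lower in WT MEFs. The interaction call of *Creb3l1* was lost without any 1 of 9 libraries, and so it was for *Pdgfra* without any 1 of 11. Of the 33 named genes with a called interaction, 23 kept the call without each of the 16 drug-treated libraries in turn.

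**Figure D5:**
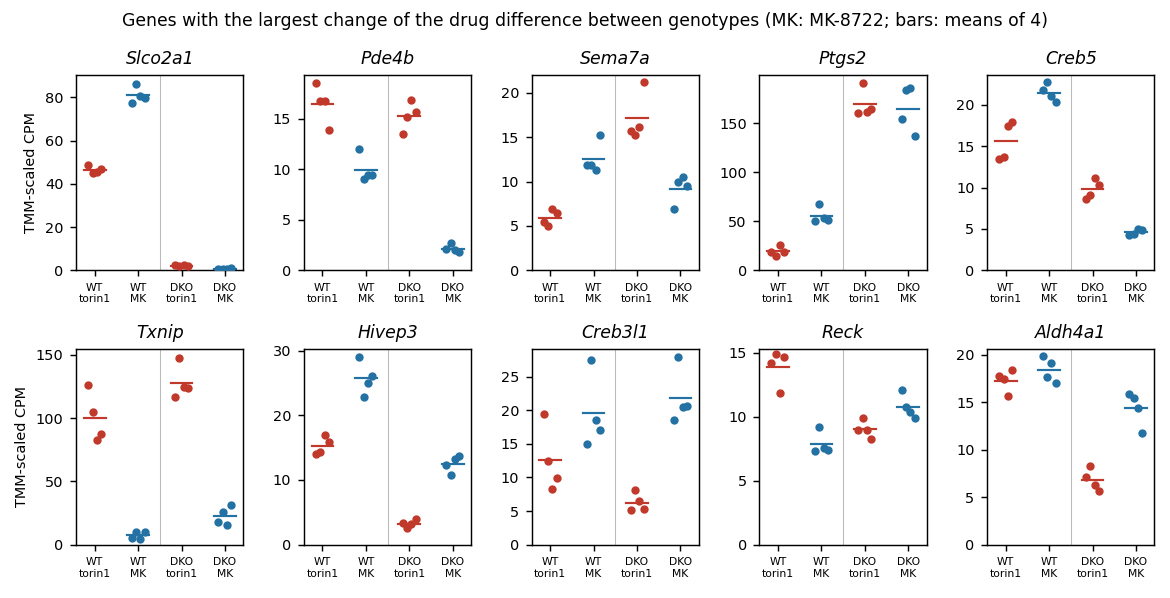
CPM in each torin1 and MK-8722 library of WT and DKO MEFs (y axis from 0) for 10 genes with a called interaction. Points are libraries and bars the means of 4, and *Slco2a1*, *Sema7a* and *Creb5* lie higher with torin1 in DKO and lower with torin1 in WT MEFs.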

How the data were processed

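mRNA of WT and *tfeb tfe3* DKO MEFs was sequenced in 6 groups of 4 libraries as pairs of 52 bp with the Universal Plus mRNA-seq protocol. The authors ran nf-core/rnaseq with STAR and salmon on GRCm38 with Ensembl release 102, considering unique molecular identifiers. The authors deposited salmon's estimated counts per gene, which are not scaled for library size, together with TPM and effective lengths. The estimated counts were rounded for the tests here. TPM values deposited by the authors entered no test, and the authors' deposited transcript lengths served only an alternative. The batch removal in the methods was not repeated, since the labels name 1 batch.

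Of 55487 genes, 15401 passed filterByExpr with a minimum count of 10. Libraries were scaled with TMM, and all 24 were fitted with 1 mean per group (18 residual degrees of freedom, biological coefficient of variation 10.7%) with the quasi-likelihood method of edgeR in the form of edgeR 3 (edgeR 4.0.16, R 4.3.3, limma 3.58.1, DESeq2 1.42.0). The fold threshold of 1.2 and the adjusted p of 0.05 are those of the study's methods. SEs were taken from the fold change and its F statistic. In simulated data for this comparison 44 of 67 genes changed by 0.5 on the log2 scale were called, 62 of 65 changed by 1 and 68 of 68 changed by 1.5, and 11 unchanged genes were called among 14995 genes run. The simulation changed far fewer genes than were called in the data. It took the spread from edgeR's trend over expression level, with no passage effect and no outlying library. These rates check the method and need not hold for the data. Gene lists and named genes were chosen with earlier results of these data known. Named were the MiT/TFE genes, the 8 largest differences per direction in DKO MEFs, the 4 largest common to both genotypes, the 5 largest interactions per direction (all at a mean log2 CPM of 3 or more), the 3 largest called members of each list and a set of anchors such as *Atf4* and *Flcn*. Further list members named with a value only, such as *Chac1*, were picked after their values were seen. Some genes that the rule picks are not reported here. RefSeq promoter windows on GRCm38.p6 matched 10577 of the genes tested by symbol, and genes without a matching symbol have no window. Motifs were searched on both strands, and CACGTG lies within TCACGTGA. Alternatives were other filters, scalings and tests, a length offset, fits of fewer groups, replicate and passage blocks and each drug-treated library left out.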

Additional observations from a re-analysis of the deposited data

Results flagged for a closer look

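In 16 of 214 groups of 4 DKO libraries of a named gene, 1 library lay far from the other 3, where chance gives about 1 in 20. MK-8722 replicate 4 was the highest library in 9 of them. It held 10.79 CPM of *Arrdc4*, 497.8 of *Atf4*, 14.49 of *Ciart*, 51.34 of *Cth*, 274.5 of *Myc*, 35.58 of *Plk3*, 40.7 of *Rpia*, 880.2 of *Sqstm1* and 172.8 of *Yars*. MK-8722 replicate 1 was lowest for *Eda2r* (0.103 CPM) and *Klhl24* (25.51 CPM), and MK-8722 replicate 3 was highest for *Rpl3* (1097 CPM). Torin1 libraries stood apart for *Idi1* (replicate 3, lowest at 7.797 CPM), *Neu1* (replicate 4, lowest at 13.01 CPM), *Ptgs2* (replicate 2, highest at 190.8 CPM) and *Sema7a* (replicate 4, highest at 21.26 CPM).

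The drug difference of 33 of 107 named genes differed between DKO and WT MEFs by edgeR's interaction test, 16 toward a more positive and 17 toward a more negative value. Of transporters, receptors and signalling genes, the change was 2.27 on the log2 scale for *Slco2a1*, 2.11 for *Pde4b*, 1.98 for *Sema7a*, 1.29 for *Itga2*, 1.04 for *Pdgfra*, 0.34 for *Irs2* and 0.28 for *Slc2a1*, and -1.71 for *Eda2r*. Of transcription factors, it was 1.54 for *Creb5*, 0.33 for *Srebf1*, -0.59 for *Klf2*, -0.91 for *Egr1*, -1.10 for *Egr3*, -1.17 for *Creb3l1* and -1.19 for *Hivep3*, and -1.22 for the clock gene *Per2*. Of stress and MTORC1 genes, it was -0.84 for *Ddit4*, -0.53 for *Sesn2*, -0.65 for *Herpud1* and -0.40 for *Castor2*. The others were *Ptgs2* at 1.56, *Epb41l4aos* at 0.81, *Mid1ip1* at 0.44, *Bysl* at 0.43, *Klhl24* at 0.37, *Calcoco1* at 0.31 and *Pole* at 0.26, and *Ostm1* at -0.42, *Car12* at -0.84, *Aldh4a1* at -0.98, *Reck* at -1.08, *Arrdc4* at -1.21 and *Txnip* at -1.28.

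Of these calls 23 held without each of the 16 drug-treated libraries in turn. The call was lost without any 1 of 13 libraries for *Klf2*, of 11 for *Klhl24* and *Pdgfra*, of 10 for *Castor2*, *Eda2r* and *Pole*, of 9 for *Creb3l1* and *Slc2a1* and of 7 for *Car12*, and without 1 library for *Irs2*. The adjusted p of *Pole* stayed at or below 0.00164, so only the fold threshold was missed. *Egr3* kept its call in these settings, but without the 3 WT libraries of passage 11, a setting chosen after the data were seen, it was at -0.97 (adjusted p = 0.0759).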

How the results depend on the processing

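Over 33 alternatives, the differences and interactions of named genes gave 4338 of 4545 values with the same call. A further 199 missed a threshold and 8 newly passed it. A called value took the opposite sign in 0 cases, and 110 of 140 results kept the same call or lack of a call throughout. Genes without a call could change sign near 0, as *Ncl* did, between -0.036 and 0.048 with 1 library left out. Between 67.2% and 99.8% of the DKO calls recurred in the same direction under alternatives other than the adjusted p alone. Leaving out each drug-treated library gave 3129 to 3271 higher and 2846 to 2987 lower genes in DKO MEFs, 3606 to 3834 and 2974 to 3280 in WT MEFs, 796 to 1118 positive and 568 to 871 negative interactions, 2157 to 2299 higher genes kept and 210 to 330 lost, and 2071 to 2139 lower genes kept and 228 to 348 lost. Library size alone gave 422 higher and 183 lower genes lost. By the adjusted p alone 3319 lower genes were kept. A test against a fold change of 1.2 gave 1962 lower genes in DKO MEFs, 227 positive and 106 negative interactions, 1484 higher genes kept and 55 lost, and 1376 lower genes kept and 71 lost. Negative interactions numbered 478 with a transcript length offset, 1263 with passage as a block and 452 without the 2 DKO libraries of the passage with the low RNA integrity number, and lost higher genes 463 and 169 in the last 2 of these settings. The cause was not tested. Torin1 and MK-8722 libraries of the same number share their passage in DKO MEFs, and their deviations correlated at 0.0715 to 0.153, each library best with its own number. Among the 8 DKO libraries the replicate block gave 6385 calls against 6234 without it, and 5 higher and 11 lower interferon-stimulated genes against 1 and 7. Among all libraries the replicate block gave 6198 calls and the passage block 6537, against 6226 without a block. Replicate numbers follow the passage throughout only in the drug-treated DKO groups. Over all libraries the replicate block thus also joined libraries of different passages. The depth and 4 libraries per group limit what can be called at small differences.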

Other observations

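In CPM of the unscaled library totals, neural markers summed to 31.9 to 41.5 CPM under torin1 and 27.1 to 36.8 CPM under MK-8722 in DKO MEFs. Muscle markers reached at most 1.02 CPM in these 8 libraries and adipocyte markers at most 1.4 CPM. The letters TCACGTGA were in promoter windows of 31 of 1666 genes higher with torin1 in both genotypes (1.86%) and of 37 of 1671 lower in both (2.21%), near the 2.16% of genes tested. Of genes whose WT difference was lost in DKO MEFs, 1 of 210 higher ones (0.476%) and 4 of 225 lower ones (1.78%) held them. A second form of the CLEAR core, GTCACGTG, was in 12 of the 210 (5.71%) and in 9 of the 225 (4%). Among genes higher or lower in both genotypes it was in 4.14% and 5.45%, and in 4.72% of the genes tested.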
